A study of Rattus norvegicus with 5 samples.

Results

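Ribosomal protein genes encode the proteins of the cytosolic ribosome and were measured here in hippocampus of rats labelled P5. They were taken as every probe set whose single annotated gene symbol starts with Rpl or Rps and a digit, or is Rplp0, Rplp1, Rplp2 or Rpsa, leaving out the Rps6 kinases. This gave 43 of the 4736 genes with a single symbol, and 63 of the 8740 probe sets that are not controls. The series holds 5 arrays of total RNA: 2 from fetal alcohol exposed rats, 1 from rats fed an isocaloric diet, a usual control for altered feeding, and 2 from rats fed the control diet. Strain, sex and alcohol dose are not given in the labels, nor whether a sample is 1 animal or a pool, so p-values measure only the spread between these samples, which may be technical.

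A ribosome has a small subunit, which reads the mRNA, and a large subunit, which joins amino acids, and each is built from ribosomal RNA and ribosomal proteins that are mostly needed in equal numbers. The mRNAs of these proteins typically begin with a C and an unbroken run of pyrimidines, the terminal oligopyrimidine tract, through which the kinase mTOR and the RNA-binding protein Larp1 set their translation together. In neurons ribosomal protein mRNAs also lie in dendrites and axons, and several of these genes (Rpl13a, Rpl19, Rplp0) are in common use as references for expression assays.

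The region around the start is shown for some of the members named in the results below. Rpl24 and Rpl26, also named below, are not shown and have runs of 6 and 3 bases at the start. Each line holds 50 bases before and 30 bases from the annotated start onward, from RefSeq promoters of build GRCr8, and capitals mark the longest run of C and T that lies within 5 bases of the start. At that place the first 5 genes have a run of at least 8 bases and the last 3 a shorter one. Rpl35a lies at chr11:81234992-81235071 (minus strand), Rpl19 at chr10:83519014-83519093 (plus), Rpl14 at chr8:129163570-129163649 (plus), Rpl17 at chr18:70856226-70856305 (plus), Rplp0 at chr12:46718361-46718440 (minus), Rpl18 at chr1:105325220-105325299 (plus), Rps6 at chr5:106420511-106420590 (minus) and Rpl41 at chr7:1563468-1563547 (minus).
Rpl35a: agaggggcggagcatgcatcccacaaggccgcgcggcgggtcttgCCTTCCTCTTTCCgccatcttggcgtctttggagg
Rpl19: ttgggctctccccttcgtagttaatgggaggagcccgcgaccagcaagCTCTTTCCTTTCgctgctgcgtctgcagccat
Rpl14: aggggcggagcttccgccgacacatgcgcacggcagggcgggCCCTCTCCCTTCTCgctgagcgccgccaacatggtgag
Rpl17: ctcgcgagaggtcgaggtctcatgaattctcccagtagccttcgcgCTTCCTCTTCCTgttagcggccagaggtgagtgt
Rplp0: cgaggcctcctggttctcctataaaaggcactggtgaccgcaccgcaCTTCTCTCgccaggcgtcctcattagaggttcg
Rpl18: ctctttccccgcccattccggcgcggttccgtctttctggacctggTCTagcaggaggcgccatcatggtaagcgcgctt
Rps6: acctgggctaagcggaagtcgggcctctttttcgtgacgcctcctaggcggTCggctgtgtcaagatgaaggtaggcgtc
Rpl41: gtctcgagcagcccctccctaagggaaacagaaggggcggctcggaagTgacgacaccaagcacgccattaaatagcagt

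A promoter was matched for 36 of the 43 members. A run of at least 8 bases within 5 bases of the start was present in 18 of the 36 (50%), against 8.59% of 19005 promoters of protein-coding genes. The median run was 7.5 against 3.0 bases, and runs further from the start were not counted. Motifs were searched on both strands over 300 bases, from 250 before the start. TCTCGCG was found in 22.2% of the members' promoters and 3.25% of all, CCGGAAG (bound by ETS factors) in 25% and 11.2%, and GGGCGG (bound by Sp1) in 63.9% and 43.1%. GCCAT, the core bound by YY1, which is on the other strand the start codon context ATGGC, was found in 52.8% and 41.0%, and TATAAA in 11.1% and 13.1%. A match describes the letters only. The longest of the counted runs of C and T were those of Rps23, with 21 bases, and Rpl27a, with 20.

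Of the 43 members, 41 were bright enough to be tested, 28 of the large and 13 of the small subunit, with 59 of the 63 probe sets. A probe set was tested when its mean log2 value over the 5 arrays was at or above the 40th percentile. Rpl5 (31.0 and 34.2 on the fetal alcohol arrays, 30.8 on the isocaloric and 37.9 and 22.8 on the control diet arrays) and Rps2-ps1, a pseudogene, were below it. For each gene the brightest probe set stands, and 30 of the 41 had a mean intensity above 1000. A total of 31 more probe sets carried several ribosomal symbols at once and were not members. Rplp1, Rplp2, Rpl32, Rps18 and Rps27a had no probe set of their own symbol alone and were not analysed here. The tested members came from at least 16 chromosomes of GRCr8, where the RefSeq table names one. Among them were 1 pseudogene symbol (Rps4x-ps9) and 4 paralogs: Rpl3l, which belongs to heart and skeletal muscle, Rps27l, a p53 target, Rpl36al1 and Rpl19l4. Because ribosomal protein genes have many near-identical processed copies, a signal can include transcripts of such copies.

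The hippocampus label was checked against markers. All 8 neuron markers with a probe set were tested, and their summed intensity was 6020 and 6517 on the fetal alcohol arrays, 5142 on the isocaloric diet array and 5628 and 5186 on the control diet arrays. The 3 tested markers of hippocampal neurons, of 4 with a probe set, summed to 296 and 535 with fetal alcohol, 388 with the isocaloric diet and 530 and 494 with the control diet. Among them Neurod2, a factor of excitatory neurons, measured 83.8 and 110 with fetal alcohol, 88.0 with the isocaloric diet and 185 and 150 with the control diet, and Neurod1, of the same family, 109 and 221, 126, and 241 and 251 in the same order of arrays. Both were lower on the fetal alcohol and isocaloric arrays than on the control diet arrays. Calb1, the remaining tested marker, measured 104 and 205 with fetal alcohol, 174 with the isocaloric diet and 104 and 93.0 with the control diet. Its log2 difference from control diet had the other sign, 0.52 with fetal alcohol and 0.76 with the isocaloric diet. The 8 meningeal markers summed to 2187 and 1204 with fetal alcohol, 1832 with the isocaloric diet and 2107 and 3009 with the control diet, and 0 of 8 had a positive difference in fetal alcohol minus control diet. The 7 choroid plexus markers summed to 2615 and 1168 on the fetal alcohol arrays, 7702 on the isocaloric diet array and 6955 and 7117 on the control diet arrays. Most of the sum on the isocaloric and control diet arrays was Ttr alone. Ttr measured 1004 and 69.2 with fetal alcohol, 5391 with the isocaloric diet and 5297 and 4886 with the control diet. In fetal alcohol minus control diet 6 of the 7 were negative and 1, Prlr, was positive (0.04). The 5 tested markers of proliferating progenitors summed to 616 and 816 with fetal alcohol and 571 with the isocaloric diet. On the control diet arrays they summed to 515 and 576, and 5 of 5 were positive in fetal alcohol minus control diet. In bulk tissue the number of cells of a type and the RNA per cell cannot be told apart. Median intensity lay between 49.0 and 55.7 on the 5 arrays, and the 2% trimmed means differed by a factor of 1.0002, so that the columns were used as deposited. The number of arrays limits the precision of every value.

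**Figure D1:**
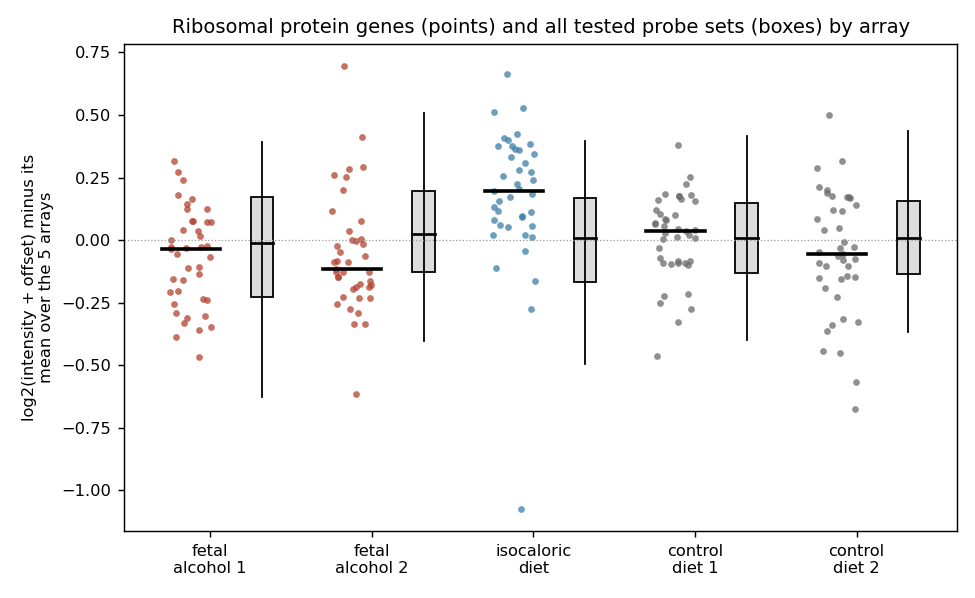
Log2(intensity + offset) of each of the 41 tested ribosomal protein genes minus its mean over the 5 arrays (points, with the median as a bar), beside all 5244 tested probe sets (box, 25th to 75th percentile; line, 5th to 95th). The members' median is 0.20 on the isocaloric array and between -0.12 and 0.04 on the others, while that of all probe sets lies between -0.01 and 0.03.

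The isocaloric array carried the highest ribosomal protein signal. For 22 of the 41 members it held the highest of the 5 values (53.7%), while it did so for 19% of all tested probe sets. The array held the lowest value for 2 members, Rpl17 and Rpl19l4 (4.88%, against 21.9% of all tested probe sets). Relative to each gene's mean over the arrays, the members' median on the log2 scale was -0.04 and -0.12 with fetal alcohol, 0.20 with the isocaloric diet and 0.04 and -0.05 with the control diet. For the 481 brightest other probe sets, in the same order of arrays, these medians were 0.07 and -0.09, -0.01, and 0.03 and 0.02, with the isocaloric array inside the range of the others. Only member probe sets were taken out of this set, not those carrying several ribosomal symbols. The members made up 4.31% and 4.27% of the summed intensity on the fetal alcohol arrays, 5.05% with the isocaloric diet, and 4.30% and 4.33% on the control diet arrays. This pattern rests on 1 array without a replicate. For beta-actin, the 3' over 5' signal, a sign of RNA integrity, was 1.18 and 1.26 with fetal alcohol, 1.12 with the isocaloric diet, the lowest of the 5, and 1.32 and 1.34 with the control diet. Its part in the pattern was not tested, nor that of the choroid plexus sum, whose highest value was also on the isocaloric array. For Gapdh the ratio was 0.984 and 0.877, 0.931, and 0.878 and 0.895, with the isocaloric array inside the range of the others.

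**Figure D2:**
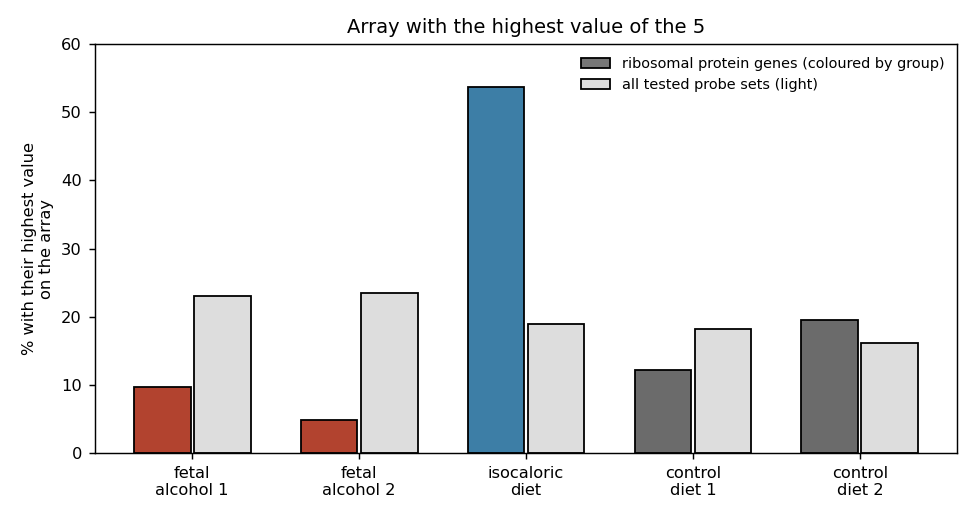
Share of the 41 ribosomal protein genes (coloured bars) and of all 5244 tested probe sets (light bars) that have the highest of their 5 values on each array. The isocaloric array holds 53.7% of the members' highest values and 19% of all.

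Fetal alcohol exposure set against the control diet asked whether these genes differ after alcohol before birth. The members lay on both sides of zero. Their median log2 difference was -0.04, with 18 of 41 positive (43.9%), against a median of 0.00 and 50.5% of all tested probe sets. The large subunit genes had a median of -0.03 (12 of 28 positive) and the small subunit genes one of -0.09 (6 of 13). No member passed an adjusted p of 0.05 in limma's moderated test with Benjamini-Hochberg adjustment over 5244 probe sets, where 0% of probe sets did. No member had an unadjusted p under 0.05 either, against 5.61% of probe sets. The lowest adjusted p of any member was 0.911. The fetal alcohol arrays both lay above both control diet arrays for 3 members, which is 7.32% against 16.8% of all tested probe sets, and both below for 11 (26.8% against 17.7%). A p that misses the threshold does not show that levels were equal, and 2 arrays against 2 could not go below 0.333 in an exact permutation test. The choroid plexus sum, given above, was lower on both fetal alcohol arrays than on any other. Its part in these differences was not tested, nor that of the hippocampal neuron, meningeal and proliferating progenitor markers.

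Among the lower members, Rplp0, the base of the stalk that recruits elongation factors, measured 3898 and 3509 on the fetal alcohol arrays, 3549 on the isocaloric diet array and 4448 and 4612 on the control diet arrays. The fetal alcohol arrays and the isocaloric array lay below both control diet arrays. The log2 difference from control diet was -0.29 ± 0.16 (SE; adjusted p = 0.927). Rps29, a small zinc-binding protein of the small subunit, measured 4780 and 4644 on the fetal alcohol arrays, 4995 on the isocaloric diet array and 5806 and 5583 on the control diet arrays (-0.27 ± 0.15). Its groups also did not overlap, but its second probe set had a difference of the other sign, 0.15. Under quantile normalization the difference of Rps29 was 0.004, so that its direction turned, and that of Rplp0 was -0.04. Rpl18 of the large subunit measured 1420 and 1438 on the fetal alcohol arrays, 2197 on the isocaloric diet array and 1641 and 2172 on the control diet arrays (-0.40 ± 0.21). Here the control diet arrays lay further apart than the nearer of them lay from the fetal alcohol arrays. Rps24, mutated in some human Diamond-Blackfan anaemia families, measured 147 and 120 on the fetal alcohol arrays, 142 on the isocaloric diet array and 182 and 191 on the control diet arrays (-0.46 ± 0.23). The dim probe set of Rpl30 gave 69.7 and 40.6 on the fetal alcohol arrays, 80.8 with the isocaloric diet, and 78.1 and 77.9 on the control diet arrays. Fetal alcohol array 2 set most of its difference of -0.47 ± 0.27, which was -0.14 without that array. Rpl39, a very small protein of the exit tunnel through which the growing chain leaves, had -0.32 ± 0.19, Rpl7a -0.31 ± 0.18 and Rpl24, which reaches across to the small subunit, -0.30 ± 0.17.

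Among the higher members, Rps6, the substrate of the S6 kinases under mTOR, measured 1554 and 2122 on the fetal alcohol arrays, 1825 on the isocaloric diet array and 1710 and 994 on the control diet arrays. The groups overlapped, and control diet array 2 was the low one. The log2 difference from control diet was 0.47 ± 0.29 (adjusted p = 0.948), and it ran from 0.09 to 0.86 when 1 array was left out. Its second probe set gave 0.63. Rpl23 and Rpl11, proteins that bind Mdm2 and so stabilise p53 when ribosome assembly fails, had 0.31 ± 0.19 and 0.26 ± 0.21. Rpl23 measured 1991 and 2046 on the fetal alcohol arrays, 2230 on the isocaloric diet array and 1770 and 1488 on the control diet arrays, without overlap. Rpl36 had 0.33 ± 0.22, Rpl36al1 0.24 ± 0.27, Rps4x-ps9 0.18 ± 0.29, Rpl35 0.17 ± 0.19 and Rpl27 0.14 ± 0.20, the last 2 with a second probe set of the other sign (-0.10 for Rpl35 and -0.05 for Rpl27). Single arrays decided several of these values. Without fetal alcohol array 2 Rpl36al1 had -0.02 and Rps4x-ps9 -0.12, and without control diet array 2 Rps4x-ps9 had -0.09 and Rpl11 0.02. Without fetal alcohol array 1 Rpl27 had -0.01, and Rpl36 had 0.12 without control diet array 1. Of the 30 named members, 16 changed sign under at least 1 alternative in this comparison.

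Of the genes that serve as expression references, Rplp0 is given above with -0.29 ± 0.16. Rpl13a, which also belongs to a complex that silences inflammatory mRNAs, measured 1882 and 1589 on the fetal alcohol arrays, 2464 on the isocaloric diet array and 1539 and 1975 on the control diet arrays, a log2 difference of -0.01 ± 0.21 from control diet. Rpl19 measured 2164 and 2308 on the fetal alcohol arrays, 3289 on the isocaloric diet array and 2786 and 2534 on the control diet arrays (-0.25 ± 0.18). Rpl22, an RNA-binding member needed for T cell development in mice, had -0.06 ± 0.20 and Rpsa, first described as a laminin receptor, -0.18 ± 0.19. The muscle paralog Rpl3l had -0.07 ± 0.23, at intensities of 101 to 124 on the 5 arrays. Its second probe set, at 8.56 to 29.9, was too dim to be tested. Rps27l had 0.09 ± 0.23. Of the genes of this paragraph, Rplp0 and Rpl19 were lower without overlap of the fetal alcohol and control diet arrays. In the other genes of this paragraph the arrays overlapped.

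**Figure D3:**
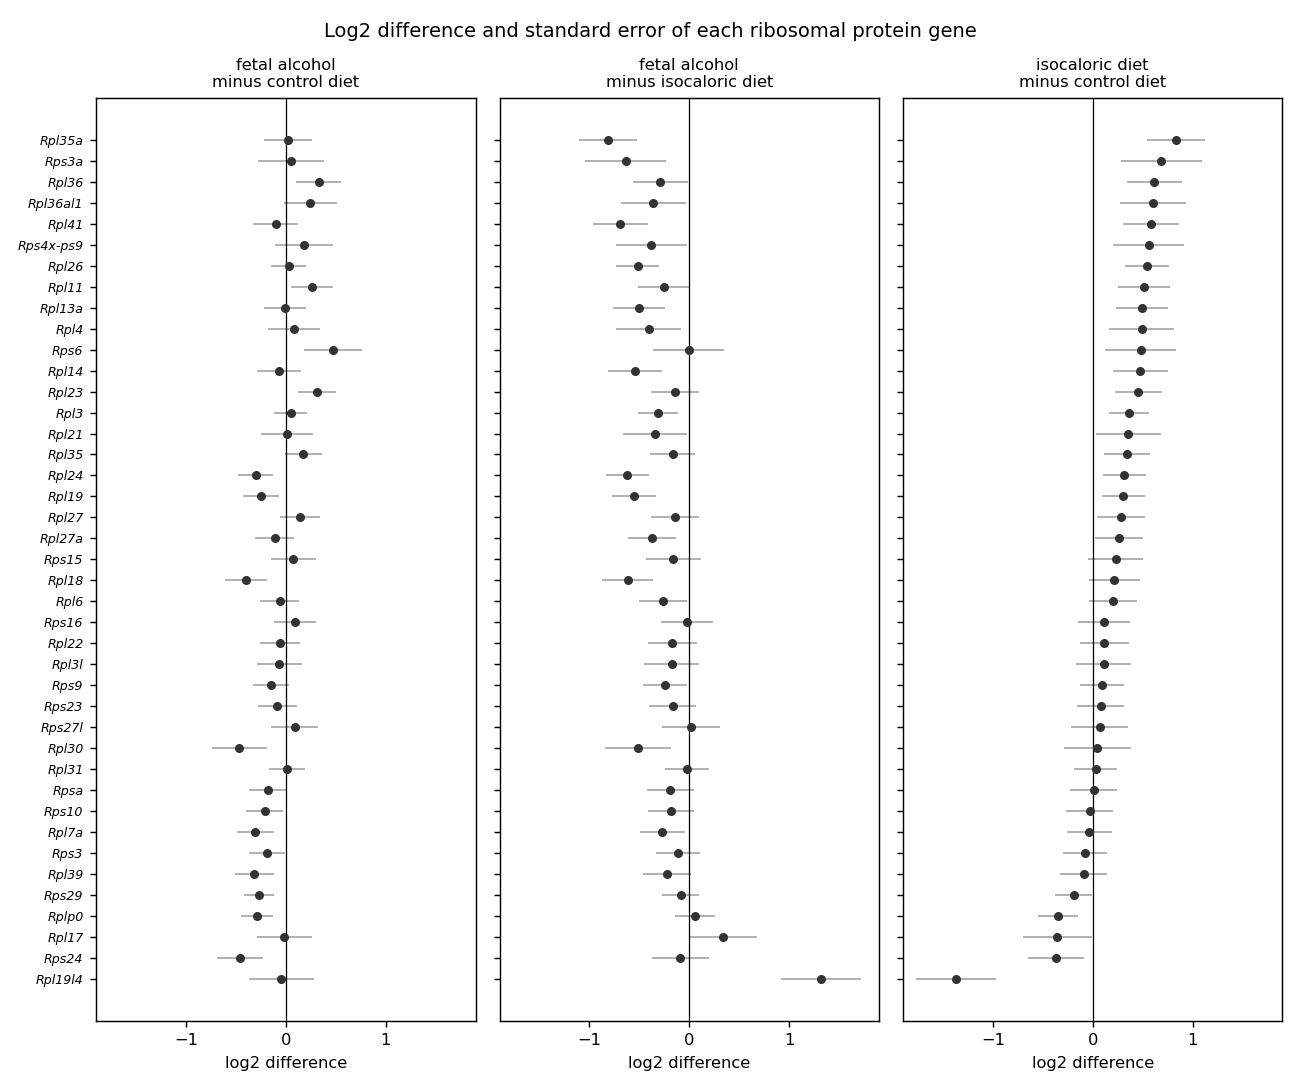
Log2 difference with its standard error (limma) for each of the 41 tested ribosomal protein genes in the 3 comparisons, ordered by isocaloric minus control diet. Fetal alcohol minus control diet scatters around zero (-0.47 to 0.47), most genes lie left of zero in fetal alcohol minus isocaloric diet (37 of 41) and right of it in isocaloric minus control diet (32 of 41).

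Fetal alcohol set against the isocaloric diet, the feeding control, gave lower values for most members. The median log2 difference was -0.24, with 37 of 41 negative, so 9.76% were positive against 49.7% of all tested probe sets, whose median was -0.003. The large subunit genes had a median of -0.30 (25 of 28 negative) and the small subunit genes one of -0.16 (12 of 13 negative). No member passed the adjusted threshold in limma, and 0% of all probe sets did. An unadjusted p under 0.05 was reached by 7 members (17.1%, 6 lower and 1 higher), against 4.21% of all probe sets. Both fetal alcohol arrays lay below the isocaloric array for 31 members (75.6%), against 28.4% of all tested probe sets, and above it for 2 (4.88% against 31.5%). The isocaloric group is 1 array and was assumed to vary like the others, so the difference between the groups has no replicate check on that side. Without fetal alcohol array 2 the share of positive members was 22.0%.

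The isocaloric value stood above the other 4 arrays for each of the 6 lower members with an unadjusted p under 0.05. Rpl35a, a large subunit protein mutated in some human Diamond-Blackfan anaemia families, had the largest difference. Its intensity was 716 and 992 on the fetal alcohol arrays, 1494 on the isocaloric diet array and 789 and 875 on the control diet arrays. The fetal alcohol and control diet arrays overlapped, and the isocaloric array stood apart. Fetal alcohol minus isocaloric diet was -0.82 ± 0.29 (limma adjusted p = 0.998). Rpl41, among the smallest known proteins of the ribosome, measured 625 and 501 on the fetal alcohol arrays, 910 on the isocaloric diet array and 596 and 608 on the control diet arrays (-0.69 ± 0.28). Rpl24 measured 2163 and 2378 on the fetal alcohol arrays, 3492 on the isocaloric diet array and 2814 and 2782 on the control diet arrays (-0.62 ± 0.21), and its second probe set gave -0.79. For Rpl24 and Rpl19 (-0.56 ± 0.22) the 3 groups stood in a row without overlap, with fetal alcohol lowest and the isocaloric array highest. Rpl18 had -0.62 ± 0.26 and Rpl26, which sits at the exit tunnel and also binds p53 mRNA in human cells, -0.52 ± 0.22. The second probe set of Rpl26 gave a smaller difference, -0.29. Rpl26 measured 2129 and 2264 on the fetal alcohol arrays, 3148 on the isocaloric diet array and 2188 and 2121 on the control diet arrays, so that fetal alcohol and control diet arrays overlapped.

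Rps3a measured 894 and 1477 on the fetal alcohol arrays, 1792 on the isocaloric diet array and 1480 and 833 on the control diet arrays. Its difference of -0.64 ± 0.41 goes with the widest replicate gap of any member on the control diet arrays, 0.82 on the log2 scale. Rpl14 measured 525 and 583 on the fetal alcohol arrays, 812 on the isocaloric diet array and 615 and 547 on the control diet arrays (-0.55 ± 0.27). Rpl13a had -0.51 ± 0.26 (-0.19 at its second probe set), Rpl22 -0.17 ± 0.25, Rpsa -0.19 ± 0.23, Rpl3l -0.18 ± 0.28 and Rps6 -0.01 ± 0.35. The 4 members with a positive difference were Rpl19l4, Rpl17, Rplp0 and Rps27l. Rpl19l4, a dim paralog of Rpl19, measured 64.8 and 130 on the fetal alcohol arrays, 30.6 with the isocaloric diet, and 81.2 and 112 on the control diet arrays (1.32 ± 0.40). Its difference had the sign opposite to that of Rpl19 itself, and its fetal alcohol arrays had the widest gap of any member, 0.90. Rpl17, of the exit tunnel, had 0.34 ± 0.34, Rplp0 0.06 ± 0.20 and Rps27l 0.02 ± 0.29.

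**Figure D4:**
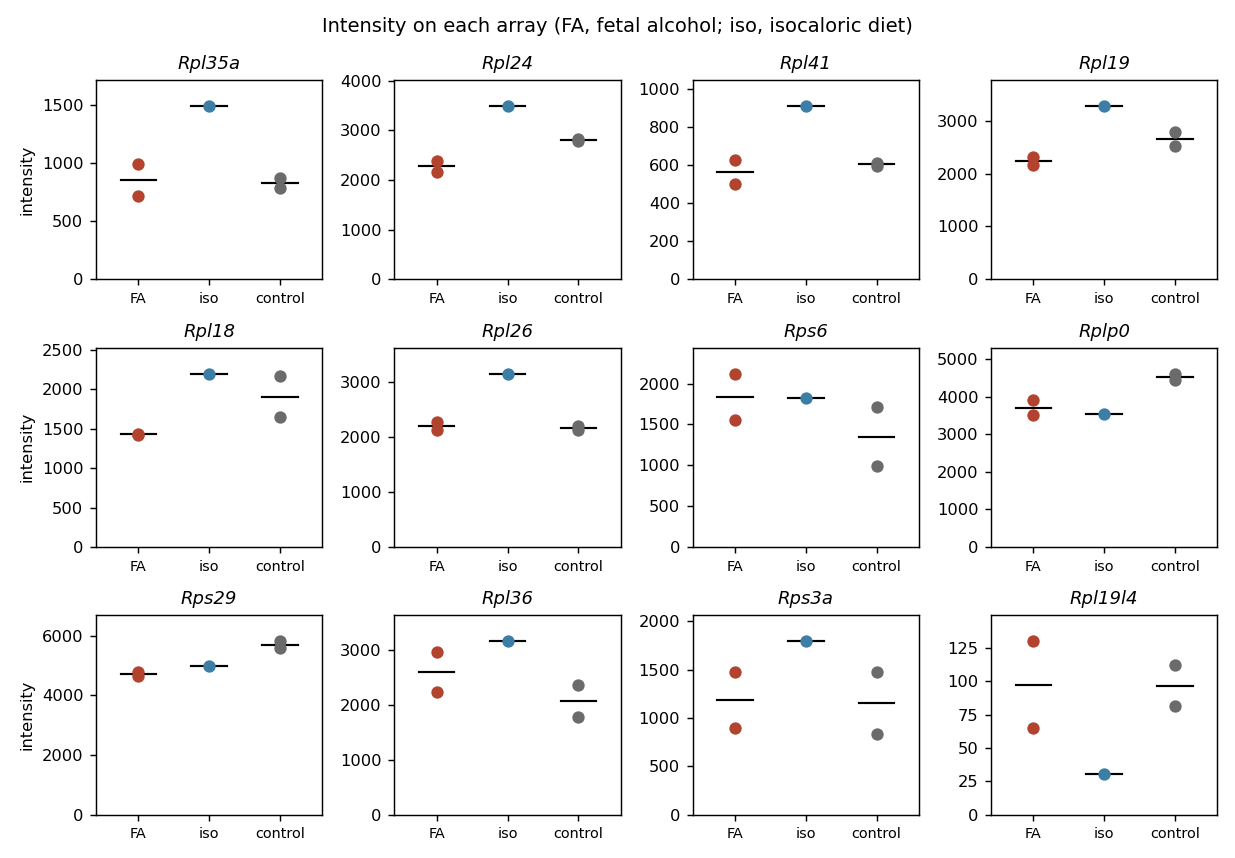
Intensity of 12 ribosomal protein genes on each array (points), with the group mean as a bar; FA is fetal alcohol and iso the single isocaloric array. Rpl35a, Rpl24, Rpl41, Rpl19, Rpl26, Rpl36, Rps3a and Rpl18 are highest on the isocaloric array, Rplp0 and Rps29 are highest on the control diet arrays, and Rpl19l4 is lowest on the isocaloric array (30.6).

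The isocaloric diet set against the control diet compares the 2 groups without alcohol, and it shares its arrays with both comparisons above. The members' median log2 difference was 0.23, with 32 of 41 positive (78.0%), against a median of 0.02 and 51.4% positive among all tested probe sets. Large subunit genes had a median of 0.31 (23 of 28 positive) and small subunit genes one of 0.08 (9 of 13). No member passed the adjusted threshold, and 0% of all probe sets did. An unadjusted p under 0.05 was reached by 3 members (7.32%), Rpl35a and Rpl26 higher and Rpl19l4 lower, against 6.81% of probe sets, a share near the background. The isocaloric array lay above both control diet arrays for 26 members (63.4%) against 38.3% of all tested probe sets, and below both for 7 (17.1% against 37.5%). Without control diet array 2 the median was 0.15, with 73.2% positive.

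Rpl35a had the highest difference, 0.84 ± 0.29 (limma adjusted p = 0.631), and then came Rps3a with 0.69 ± 0.41, Rpl36 with 0.62 ± 0.28, Rpl36al1 with 0.60 ± 0.33, Rpl41 with 0.59 ± 0.28, Rps4x-ps9 with 0.56 ± 0.36, Rpl26 with 0.55 ± 0.22 and Rpl11 with 0.51 ± 0.26. Rpl36 measured 3149 on the isocaloric diet array and 1772 and 2365 on the control diet arrays, with 2956 and 2236 on the fetal alcohol arrays. Rpl11 measured 2990 on the isocaloric diet array and 2465 and 1772 on the control diet arrays, with 2631 and 2391 on the fetal alcohol arrays. Rpl3, which reaches the peptidyl transferase centre, measured 4220 on the isocaloric diet array and 3267 and 3281 on the control diet arrays, with 3494 and 3287 on the fetal alcohol arrays (0.37 ± 0.20). Its second probe set gave 0.25, and there fetal alcohol array 1 (3413) lay above the isocaloric array (3333).

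On the low side stood Rpl19l4 with -1.37 ± 0.40 (adjusted p = 0.56), Rps24 with -0.37 ± 0.28, Rpl17 with -0.35 ± 0.34, Rplp0 with -0.35 ± 0.20, Rps29 with -0.19 ± 0.19, Rpl39 with -0.09 ± 0.24, Rps3 with -0.08 ± 0.22 and Rpl7a with -0.04 ± 0.23. Under quantile normalization Rps29 had 0.08 and Rplp0 -0.19. The second probe sets of Rps29 and Rps3 had the other sign, 0.20 and 0.22. Of the genes used as references, Rpl13a had 0.50 ± 0.26 (0.18 at its second probe set), Rpl19 0.31 ± 0.22 and Rplp0 a difference of the other sign. At their brightest probe sets the 3 thus spanned -0.35 to 0.50 on the log2 scale in 1 comparison. Rpl22 had 0.11 ± 0.25, Rpsa 0.01 ± 0.23, Rps6 0.48 ± 0.35, Rpl3l 0.11 ± 0.28 and Rps27l 0.07 ± 0.29.

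Members with a long and with a short pyrimidine run at the start were set side by side. A run counted only within 5 bases of the annotated start, so the split depends on where that start is placed. Some genes counted as short have a longer run further upstream, such as Rps6 in the sequence printed above. The split therefore cannot tell mRNAs with the tract from those without it. For fetal alcohol minus control diet the median was -0.02 over 17 tested genes with a run of at least 8 bases and -0.03 over 18 with a shorter one. For fetal alcohol minus isocaloric diet the medians were -0.17 and -0.27, and for isocaloric minus control diet 0.26 and 0.27. Rpl35a, with the highest value in the last comparison, has a run of 13 bases in the sequence printed above, and Rpl17, with one of the lowest, has 12.

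The median absolute gap between the 2 arrays of a group was 0.25 on the log2 scale for the members in fetal alcohol and 0.16 in control diet. The same gap over all tested probe sets was 0.30 and 0.20, so members were somewhat closer between replicates than probe sets at large. Most members were bright, and no gap was computed for other probe sets of like brightness. The median absolute difference was 0.14 for the members and 0.19 for all probe sets in fetal alcohol minus control diet, 0.26 and 0.21 in fetal alcohol minus isocaloric diet, and 0.32 and 0.24 in isocaloric minus control diet. The first of these lay below both replicate gaps of the members. It sets a mean of 2 arrays against another, which varies less than a gap between single arrays. The other 2 differences, which set a single array against a mean, lay above both gaps.

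A total of 15 tested genes had several tested probe sets. Their probe sets had the same sign for 9 of 15 genes in fetal alcohol minus control diet, for 13 in fetal alcohol minus isocaloric diet and for 10 in isocaloric minus control diet. The spread between the probe sets of 1 gene had a median of 0.14, 0.20 and 0.26 in these comparisons. Rps15, at the decoding side of the small subunit, had the widest spread in fetal alcohol minus control diet and in isocaloric minus control diet. Its 3 probe sets gave 0.07, 0.42 and -0.62 in fetal alcohol minus control diet, the first being the brightest, and from -0.13 to 1.05 in isocaloric minus control diet. Rpl21 had the widest spread in fetal alcohol minus isocaloric diet, 0.763 against 0.472 for Rps15. It had 4 probe sets, with -0.34 at the brightest and up to 0.42 at the dimmest in fetal alcohol minus isocaloric diet. Rpl23, Rpl24, Rpl26, Rpl3 and Rpl11 were among the genes with the same sign at both of their probe sets in all 3 comparisons.

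**Figure D5:**
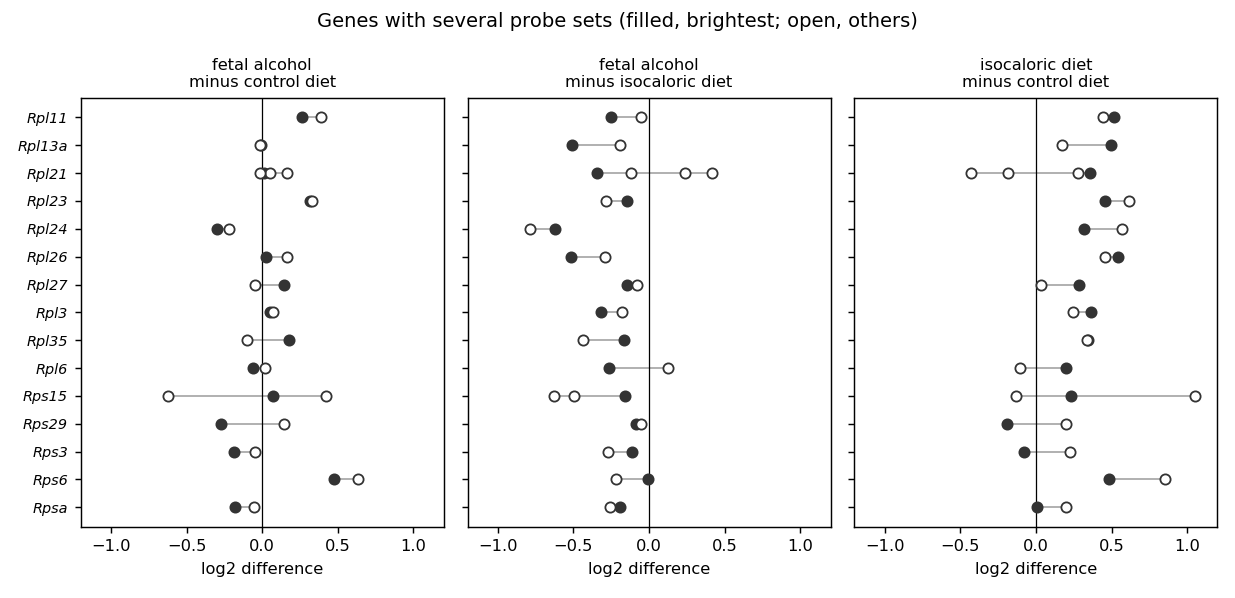
Log2 differences of every tested probe set for the 15 ribosomal protein genes with several (filled, the brightest, which stands for the gene; open, the others; lines join probe sets of 1 gene). The widest spread is that of Rps15 in isocaloric minus control diet (1.18) and in fetal alcohol minus control diet (1.05), and that of Rpl21 in fetal alcohol minus isocaloric diet (0.763).

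Other genes of the translation machinery were described by counts, and none passed the threshold in any of the 3 comparisons. Mitochondrial ribosomal proteins, which build the separate ribosome of mitochondria, had a median log2 difference of 0.12 in fetal alcohol minus control diet (10 of 14 positive), -0.10 in fetal alcohol minus isocaloric diet (4 of 14) and 0.27 in isocaloric minus control diet (13 of 14). Initiation factors, which bring mRNA and the small subunit together, had 0.06 (12 of 19 positive), -0.17 (6 of 19) and 0.22 (15 of 19). Signal recognition and translocon genes, which dock ribosomes at the endoplasmic reticulum, had 0.14 (4 of 6), -0.19 (1 of 6) and 0.31 (5 of 6). Elongation factors had medians of -0.11, 0.03 and -0.05 over 5 genes. Among them Eef1a2, the neuron and muscle form of the factor that delivers tRNA, had -1.15 in isocaloric minus control diet, and Eef1a1, the general form, 0.07. The 7 other genes of terminal oligopyrimidine mRNAs, some of them also elongation factors, had medians of -0.11 (2 of 7 positive), -0.29 (2 of 7) and 0.14 (5 of 7). Hnrnpa1 and Naca were the 2 positive ones in fetal alcohol minus control diet, and the other 5, Eef1a1, Eef1a2, Eef1g, Eef2 and Rack1, were negative. Hnrnpa1, an RNA-binding protein of splicing, measured 845 and 1258 on the fetal alcohol arrays, 1329 on the isocaloric diet array and 620 and 675 on the control diet arrays. Naca, which binds new chains as they leave the ribosome, measured 1072 and 1066 on the fetal alcohol arrays, 1401 on the isocaloric diet array and 890 and 827 on the control diet arrays. Ribosome biogenesis genes had medians of 0.03, -0.05 and 0.10 over 9 genes, 7 genes of the mTOR pathway (Pdpk1, Akt1, Akt2, Tsc2, Mtor, Eif4ebp1 and Rheb, with no S6 kinase among those tested) 0.05, -0.08 and -0.12, and aminoacyl-tRNA synthetases 0.17, -0.07 and 0.20 over 3.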

How the data were processed

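The deposited values are linear intensities of single-colour arrays. Their trimmed means were nearly equal across arrays as deposited; how the authors scaled them is not given in the sources used here. In all, 59 control probe sets were left out. Intensities became log2(intensity + 10.605), the offset being the 20th percentile of all values, which shrinks differences of dim probe sets. One limma fit (limma 3.58.1, R 4.3.3) covered the 5 arrays with an intensity trend, over 5244 probe sets, with 2 residual degrees of freedom from the fetal alcohol and control diet arrays. P-values are 2-sided, adjusted by Benjamini-Hochberg, threshold 0.05. The fit was tried on simulated data with planted differences larger than those of most members. It therefore does not show whether differences of the members' size would be found. Errors are standard errors of limma.

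Gene names are the platform annotation's; sequences are RefSeq's (GRCr8). Named members are those with up to 8 highest and 8 lowest differences per comparison, plus reference, stalk and paralog genes whatever their values, and genes with several probe sets. The members, lists and rules were chosen with earlier results of these data known, and no p for a list was computed. No scan batch was available to test here. Alternatives were other offsets, filters, normalizations, variance model, probe set choices, a replicate block and leaving out each array.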

Additional observations from a re-analysis of the deposited data

How the results depend on the processing

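The number of all probe sets past the threshold in fetal alcohol minus control diet, 0 as reported, was 1 with an offset of 50, 1 with cyclic loess, 1 with quantile normalization, 9 with equal medians and 8 with the replicate block, and 0 to 25 with 1 array left out (17 without fetal alcohol array 1, 25 without array 2). For fetal alcohol minus isocaloric diet it was 1 with cyclic loess, 3 with equal medians, 3 with quantile normalization and 0 to 12 with 1 array left out, and for isocaloric minus control diet 0 to 13; the high counts came without a fetal alcohol array, where the control diet arrays alone gave the spread. No ribosomal protein probe set was among them under any of these settings; the lowest adjusted p of one was 0.0587, without fetal alcohol array 2. The replicate block left the members' median at -0.04 and changed no member's call. Arrays with the same replicate number had deviations that correlated at -0.113, so the numbers were not shown to pair the arrays.

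The members' median for isocaloric minus control diet, 0.23, was 0.294 with equal medians, 0.295 with quantile normalization, 0.159 with the mean over all probe sets of a gene, 0.322 with plain _at probe sets, and 0.145 to 0.245 with 1 array left out (lowest without control diet array 2). For fetal alcohol minus isocaloric diet the median ran from -0.28 to -0.19 over all settings, and the share of positive members, 9.76%, was 17.1% with cyclic loess, 14.6% with quantile normalization, 5.56% without the pseudogene and paralog symbols (a choice made after seeing the data) and 7.32% to 22.0% with 1 array left out (22.0% without fetal alcohol array 2). For fetal alcohol minus control diet the median ran from -0.10 to 0.00 and turned positive under quantile normalization and with the probe sets of several ribosomal symbols added (also chosen after seeing the data). Among 30 named members, the sign of the difference changed under at least 1 alternative for 16 in fetal alcohol minus control diet, 6 in fetal alcohol minus isocaloric diet and 4 in isocaloric minus control diet. The isocaloric diet has 1 array, and no value of a tested member fell under the offset.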

Other observations

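The 31 probe sets that carry several ribosomal protein symbols, or pseudogenes of them, were left out of the members because no single gene can be named for them. Of these, 30 were bright enough to test. Their median log2 difference was 0.09 in fetal alcohol minus control diet (17 of 30 positive), -0.17 in fetal alcohol minus isocaloric diet (4 of 30 positive) and 0.30 in isocaloric minus control diet (25 of 30 positive). Relative to the mean of the 5 arrays, their median was 0.09 and -0.13 with fetal alcohol, 0.19 with the isocaloric diet and -0.06 and -0.10 with the control diet. The isocaloric array was the highest of the 5 for 13 of the 30, and for 19% of all tested probe sets. These probe sets were measured on the same arrays as the members, so they do not replicate the isocaloric group.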
